A study of Mus musculus with 4 samples.

Results

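The forkhead genes encode transcription factors that share the winged-helix forkhead DNA-binding domain and are named Fox with a letter for the subfamily. The 41 forkhead genes described here were chosen by gene symbol among the 35689 genes of the table, and each matched 1 Ensembl identifier. Earlier results of these data were known when the set was chosen. Foxj1 is outside the set. RNA was measured at E11.5 in whole mouse forelimb buds, in 4 libraries, each made from the left and right forelimbs of an individual embryo. The knockout embryos (2 libraries) were PrxCre/+;Smarcc1c/c, and the control embryos (2 libraries) were Prx+/+;Smarcc1c/c, so the conditional Smarcc1 alleles were carried by all 4 embryos and Cre by the knockouts alone. Each genotype had 1 embryo with 40 somites and 1 with 39 somites, and values are given in that order.

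Smarcc1 encodes a scaffold protein of BAF, an ATP-driven remodeller of nucleosomes. PrxCre is active in limb bud mesenchyme, so the ectoderm, blood and vessels of a bud are outside its main domain. The values are TPM, a share of all transcripts in a library, and they allow for the length of each transcript, so levels can be set side by side between genes. Smarcc1 stood at 46.2 and 38.4 TPM in knockout libraries and at 112.0 and 119.6 TPM in control libraries (log2 fold change -1.44 with an SE of 0.13, n = 2 each; limma, Benjamini-Hochberg adjusted p = 0.0117). The labelled tissue was checked with 10 limb mesenchyme markers, whose summed level was 978.4 and 1134.7 TPM in knockout embryos, compared with 934.8 and 1117.2 TPM in control embryos. Between 12555 and 12689 genes reached 1 TPM in each library. Depth cannot be read from TPM, and how many reads a value rests on is unknown. Ddx3y, a Y-linked gene, stood at 0.0498 and 28.3 TPM in knockout buds, against 0.013 and 30.2 TPM in control buds, so sex coincided with somite stage and was balanced between the genotypes.

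Forkhead factors work at several layers of development. FOXA and some FOXC and FOXD factors can bind closed chromatin, FOXO factors respond to insulin and growth factor signalling, FOXM1 drives genes of cell division, and FOXP factors act mostly as repressors. In mouse facial mesenchyme, Foxc2, Foxd1, Foxd2, Foxf1 and Foxf2 are known as genes that respond to Hedgehog signalling, the pathway whose GLI repressors the title of the series concerns.

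Foxd1 and Foxp1 rose in the knockout forelimbs, and none of the tested forkhead genes fell. Foxd1, best known from the stromal progenitors of the kidney and from the developing retina, was almost undetected in the controls and reached more than 3 TPM in both knockouts. Foxp1, a repressor known in limb-innervating motor neurons, lymphocytes and skeletal progenitors, stood at 2.35 times its control level. Of the 41 genes, 17 reached 1 TPM in at least 2 libraries and were tested. Of these, 2 rose, 0 fell and 15 did not pass (limma on log2(TPM + 1), Benjamini-Hochberg adjusted over 12809 genes at 0.05). Of all tested genes 1.30% passed, 0.812% upwards and 0.492% downwards. Foxd1 met the filter through its knockout values alone, so the count of tested members that rose is a description. The median log2 fold change of the 17 genes was 0.02, against 0.01 over all tested genes.

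The 250 bases before the annotated starts of the 2 genes that rose are shown because they are where the forkhead family's own core motif, or a GLI motif, could be looked for. Sequences are from RefSeq (GRCm38.p6, the same assembly as mm10), written along the gene's strand, and capitals mark the forkhead core TAAACA or its reverse complement TGTTTA. Foxp1 has 3 annotated starts in that table.
Foxd1 (chr13:98353995-98354244, plus strand): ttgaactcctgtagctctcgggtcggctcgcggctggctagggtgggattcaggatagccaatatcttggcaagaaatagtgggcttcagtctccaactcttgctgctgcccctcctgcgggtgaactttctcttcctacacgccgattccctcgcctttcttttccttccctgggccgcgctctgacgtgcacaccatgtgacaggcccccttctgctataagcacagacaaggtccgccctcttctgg
Foxp1, distal start (chr6:99520994-99521243, minus strand): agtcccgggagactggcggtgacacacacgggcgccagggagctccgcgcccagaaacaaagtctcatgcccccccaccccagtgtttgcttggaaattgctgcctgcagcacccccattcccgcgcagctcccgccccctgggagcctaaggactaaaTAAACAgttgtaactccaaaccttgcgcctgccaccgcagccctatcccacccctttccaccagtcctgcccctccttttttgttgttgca
Foxp1, middle start (chr6:99266516-99266765, minus strand): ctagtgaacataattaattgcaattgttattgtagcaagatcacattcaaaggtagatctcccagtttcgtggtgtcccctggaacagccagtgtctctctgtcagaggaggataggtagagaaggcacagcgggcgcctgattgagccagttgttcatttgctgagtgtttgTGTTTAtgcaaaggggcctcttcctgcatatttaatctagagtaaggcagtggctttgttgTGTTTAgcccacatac
Foxp1, proximal start (chr6:99028299-99028548, minus strand): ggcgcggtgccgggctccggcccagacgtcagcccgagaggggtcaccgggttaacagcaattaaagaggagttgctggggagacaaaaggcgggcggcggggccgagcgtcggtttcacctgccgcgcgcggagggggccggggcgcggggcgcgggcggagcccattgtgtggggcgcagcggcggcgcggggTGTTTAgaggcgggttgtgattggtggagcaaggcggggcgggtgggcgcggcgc
The core TAAACA, sought on both strands, was in each of the 3 Foxp1 windows and not in the Foxd1 window, and 12.0% of all 32851 promoter windows of the same length hold it. The middle Foxp1 window held 2 copies and the other Foxp1 windows 1 each. The longer forkhead motif GTAAACA, which contains the shorter core, was in none of these 4 windows and in 3.17% of all windows. The GLI motif GACCACCCA was in none of the 32 windows of the 27 forkhead genes listed, and in 0.225% of all windows. A match of letters is a description and not a bound site. The forkhead windows had a median GC content of 62.4% and a median of 16.5 CpG dinucleotides, against 52.4% and 6 over all windows. The Foxd1 window had 57.2% GC and 12 CpG, and the 3 Foxp1 windows, from distal to proximal, had 60.8%, 45.2% and 74.0% GC.

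Foxd1 was read at 3.17 and 3.48 TPM in knockout libraries and at 0.00773 and 0.0246 TPM in control libraries. The groups were separated by more than 3 TPM, and the knockout libraries differed from each other by much less. The log2 fold change of Foxd1 came to 2.09 ± 0.17 (SE, n = 2 each; 95% interval 1.69 to 2.49; limma, Benjamini-Hochberg adjusted p = 0.00933). The size of that fold rests on the constant added before taking logs, since the control values are near 0: it was 4.89 with 0.1 added and 0.73 with 5 added, and the gene passed with both (limma adjusted p from 0.00933 to 0.0121 over the 3 constants). Without a filter on low values it no longer passed (limma adjusted p = 0.0871). Foxd1 (ENSMUSG00000078302) is annotated on chromosome 13 of mm10 from 98354242 to 98359305 on the plus strand, as a gene of 5064 bases without an intron, and overlaps no other annotated gene. Among the members it ranked 11 of 41 by mean level in the knockout and 32 in the control. Little of its sequence is shared: 1.23% of the 31-base stretches of its transcript also occur in transcripts of other genes, mostly of Foxd2. The 6 tested genes within 500 kb of Foxd1 had log2 fold changes from -0.69 to 0.16 and none passed (smallest limma adjusted p = 0.119).

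Foxp1 was read at 20.7 and 24.8 TPM in knockout embryos, compared with 9.93 and 9.43 TPM in control embryos. Both knockout libraries lay above both controls. The log2 fold change of Foxp1 came to 1.15 ± 0.14 (SE, n = 2 each; 95% interval 0.81 to 1.48; limma, Benjamini-Hochberg adjusted p = 0.0251). The call ended when control replicate 1 (40 somites) or control replicate 2 (39 somites) was left out, with log2 fold changes of 1.18 and 1.12 and limma adjusted p of 0.0745 and 0.0821, and with no filter on low values (adjusted p = 0.147). By mean level Foxp1 ranked 4 of 41 members in the knockout and 7 in the control. The gene (ENSMUSG00000030067) spans 597384 bases of chromosome 6 of mm10, from 98925338 to 99522721 on the minus strand, of which 13751 bases are exonic. Its transcript isoforms were not analysed separately here. The 3 tested genes within 500 kb, Eif4e3, Gpr27 and Tpt1-ps3, had log2 fold changes of -0.34, 0.13 and -1.45, and none passed (smallest limma adjusted p = 0.362). Tpt1-ps3 varied widely within the knockout, at 306.5 and 78.7 TPM, against 330.6 and 551.8 TPM in the control (SE 0.60).

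**Figure D1:**
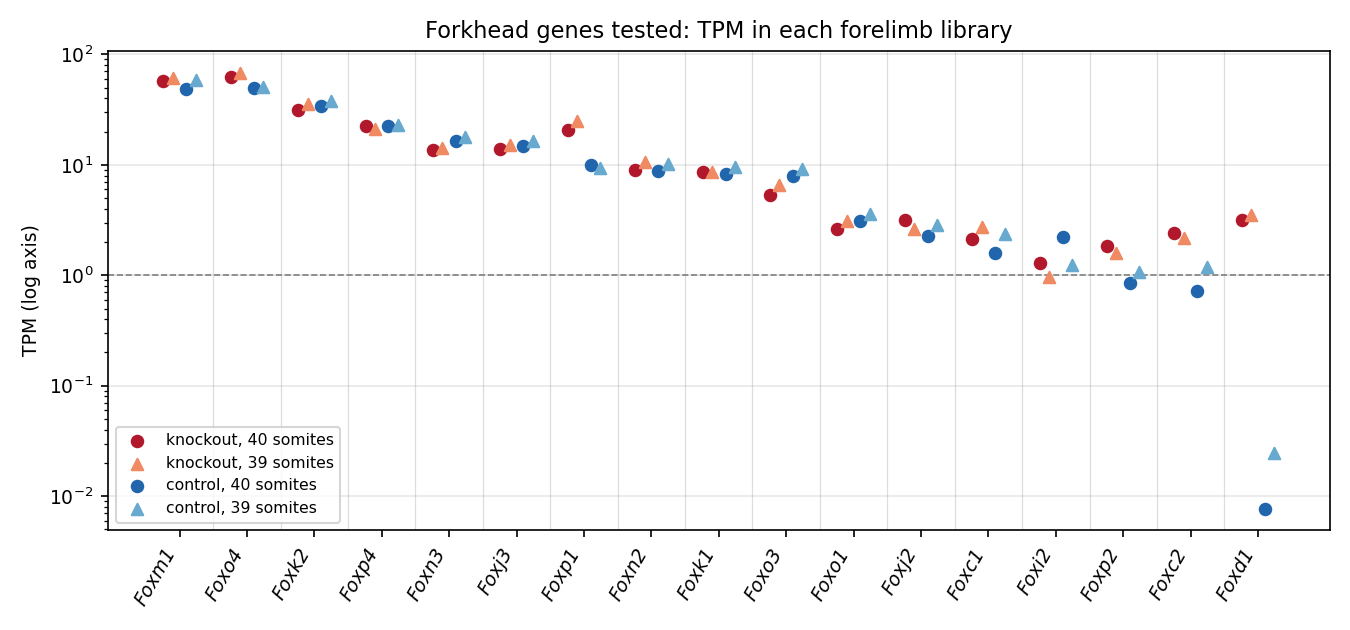
TPM on a log axis of the 17 forkhead genes tested, with 1 point per library, red for knockout and blue for control, circles for 40 somites and triangles for 39. Genes run by control mean, and the dashed line is 1 TPM. Foxd1 stands at 3.17 and 3.48 TPM in the knockout and below 0.03 TPM in the control.

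**Figure D2:**
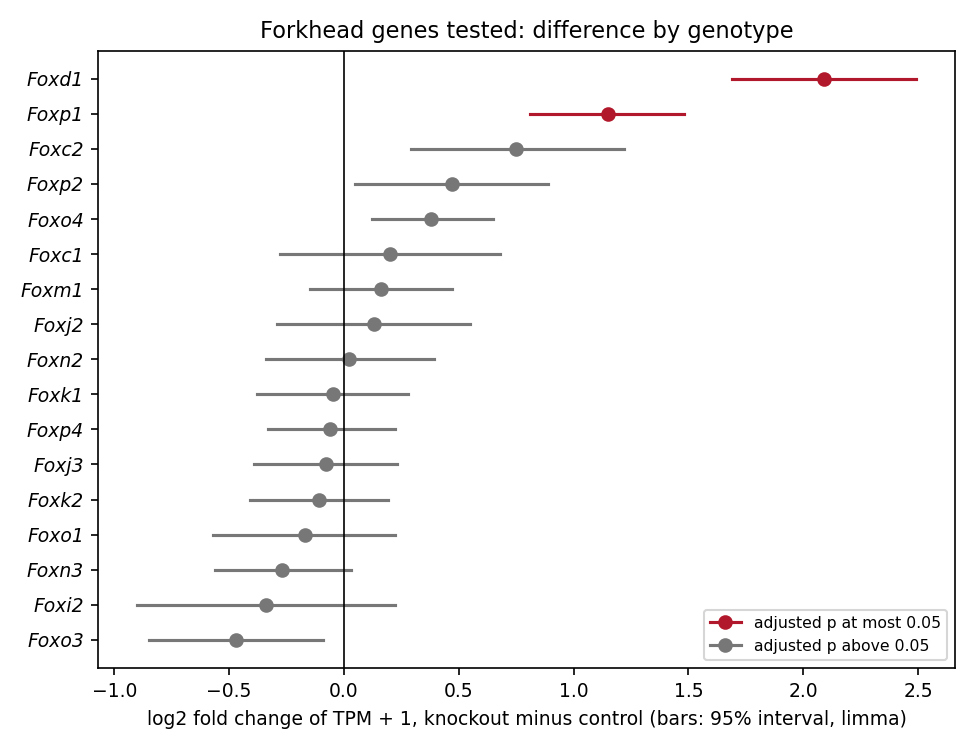
Log2 fold change of TPM + 1, knockout minus control, with 95% intervals from limma, for the 17 forkhead genes tested. The 2 genes in red, Foxd1 and Foxp1, have adjusted p at or under 0.05, and 11 of the other genes have intervals that hold 0.

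The other FOXP genes did not pass. Foxp4, which is broadly expressed, stood at 22.5 and 21.2 TPM in knockout buds, against 22.4 and 23.1 TPM in control buds, with a 95% interval of its log2 fold change from -0.33 to 0.22. Foxp2, known for its part in brain circuits and in lung and limb mesenchyme, stood at 1.83 and 1.60 TPM in knockout libraries and at 0.846 and 1.08 TPM in control libraries (0.47 ± 0.17; limma, Benjamini-Hochberg adjusted p = 0.303). Foxp3, the factor of regulatory T cells, stayed under 0.2 TPM in all 4 libraries. Foxp1 made up 45.8% and 51.9% of the summed FOXP level in the knockout, and 29.9% and 27.9% in the control. The summed level itself was 45.2 and 47.8 TPM in knockout embryos, compared with 33.2 and 33.8 TPM in control embryos.

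Beside Foxp3, the T cell markers Cd3e and Cd3g were listed at 0 in every library and 8 of the 9 T cell markers stayed below 1 TPM. Lck, the remaining marker, stood at 23.5 and 22.8 TPM in knockout buds, against 14.6 and 18.4 TPM in control buds. Of the 31-base stretches of Foxp3 transcripts, 26.4% occur in other genes, mostly in Flicr, which overlaps it on the same strand, so its low value is uncertain.

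**Figure D3:**
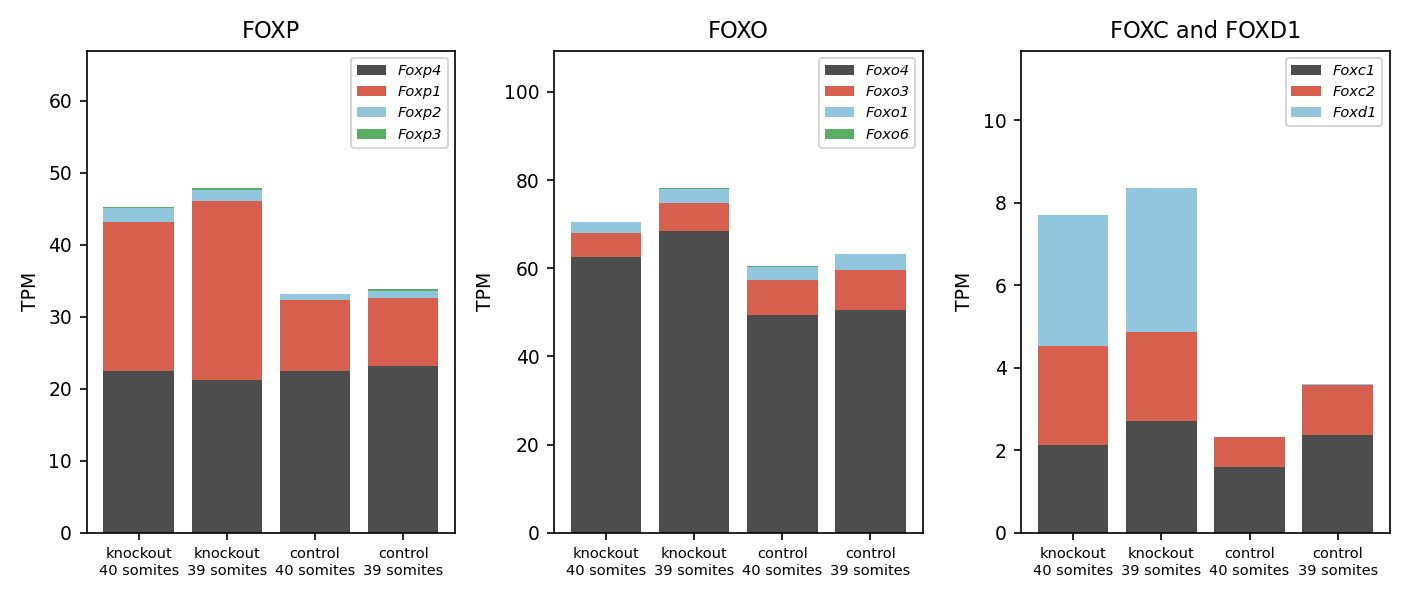
Summed TPM of the FOXP genes, of the FOXO genes, and of Foxc1, Foxc2 and Foxd1, stacked by gene, with 1 bar per library and the 2 knockouts left of the 2 controls. The Foxp1 part of the FOXP bar and the Foxd1 part of the last panel are taller in both knockouts, while the Foxp4 part stays between 21.2 and 23.1 TPM.

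Among the forkhead genes of mesenchyme, 3 were tested and Foxd1 passed, where 0.812% of all tested genes passed upwards. Foxd1 met the filter through its knockout values alone, so this count is a description. Foxc1 and Foxc2, paralogs with roles in somites, skeleton and vessels, were both measured near the filter. Foxc2 stood at 2.39 and 2.16 TPM in knockout libraries and at 0.714 and 1.20 TPM in control libraries. Its groups did not overlap, and its log2 fold change was 0.75 ± 0.19 (95% interval 0.29 to 1.22; limma, Benjamini-Hochberg adjusted p = 0.162). Foxc1 stood at 2.14 and 2.71 TPM in knockout embryos, compared with 1.60 and 2.38 TPM in control embryos, with overlapping groups (0.20 ± 0.20; limma adjusted p = 0.746). Foxc2 was 52.8% and 44.4% of the summed FOXC level in the knockout and 30.8% and 33.5% in the control. Over the alternatives the log2 fold change of Foxc2 ran from 0.29 to 1.21 and it passed in none of 11.

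The remaining mesenchymal genes, Foxd2, Foxf1, Foxf2, Foxl1, Foxq1 and Foxs1, were under the filter and were not tested. Foxf2, a gene of gut, palate and pericyte mesenchyme, stood at 0.652 and 1.42 TPM in knockout buds, against 0.147 and 0.190 TPM in control buds. Both knockout libraries lay above both controls, and the library with 39 somites reached 1 TPM. Foxd2 reached 1 TPM in the same library, at 0.173 and 1.08 TPM in knockout libraries and at 0.488 and 0.468 TPM in control libraries, so its groups overlapped. Foxf1, the lung and gut paralog of Foxf2, stood at 0.0312 and 0.0324 TPM in knockout embryos, compared with 0.0454 and 0.0970 TPM in control embryos. Foxl1, a gene of gut mesenchyme, stood at 0.146 and 0.207 TPM in knockout buds, against 0.0904 and 0.0689 TPM in control buds. Foxq1 and Foxs1 stayed under 0.3 TPM. For Foxq1, 65.9% of its 31-base stretches are shared with other genes, mostly the overlapping A530084C06Rik on the opposite strand, and whether quantification used strand is not given in the sources used here.

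Several of these genes sit together in the genome. Their mean values are set side by side here, and differences within a cluster were not tested. All of them but Foxc1 and Foxc2 were under the filter. On chromosome 13, Foxq1 is followed by Foxf2 after 64.8 kb and by Foxc1 after a further 175.2 kb. Foxf2 averaged 1.04 TPM in knockout buds (SD 0.541), against 0.168 TPM in control buds (SD 0.0306). Foxc1, whose groups overlapped, averaged 2.42 TPM in knockout embryos (SD 0.4), compared with 1.99 TPM in control embryos (SD 0.547). Foxq1 averaged 0.0496 TPM in knockout buds, against 0.0338 TPM in control buds. On chromosome 8, Foxf1, Foxc2 and Foxl1 lie in a row with gaps of 28.0 and 9.0 kb. Foxc2 averaged 2.28 TPM in knockout buds, against 0.957 TPM in control buds, with Foxf1 and Foxl1 on its sides at or under 0.21 TPM in every library. Foxd2 and Foxe3 lie 16.3 kb apart on chromosome 4, and Foxe3 was listed at 0 in all libraries.

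FOXO factors hold growth in check and are kept out of the nucleus by AKT. Foxo4 was the most abundant of them and, in the knockout, of all 41 members. It stood at 62.6 and 68.4 TPM in knockout embryos, compared with 49.3 and 50.5 TPM in control embryos, with a log2 fold change of 0.38 ± 0.11 (95% interval 0.12 to 0.65; limma, Benjamini-Hochberg adjusted p = 0.196). Foxo3 lay on the other side, at 5.31 and 6.51 TPM in knockout buds, against 8.00 and 9.11 TPM in control buds (-0.47 ± 0.16, 95% interval -0.85 to -0.09; limma adjusted p = 0.265). For both genes the groups did not overlap, and neither passed, also with somite stage in the model (limma adjusted p = 0.0593 and 0.0835). Foxo1 stood at 2.61 and 3.12 TPM in knockout libraries and at 3.10 and 3.60 TPM in control libraries, with groups that overlapped. Foxo6 stayed under 0.15 TPM. Foxo4 was 88.7% and 87.6% of the summed FOXO level in the knockout and 81.4% and 79.7% in the control, and Foxo3 was 7.52% and 8.33% in the knockout and 13.2% and 14.4% in the control.

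Genes that FOXO factors are known to activate gave no call. Of 17 tested, 0 rose and 0 fell by limma over all genes, while 3 were higher and 0 lower at an unadjusted p of 0.05, where 6.78% and 6.89% of all tested genes were higher and lower. Their median log2 fold change was 0.19. Knockout values lay wholly above control values in 8 of the 17 and wholly below them in 3. Over all tested genes 22.7% were separated upwards and 21.2% downwards. Irs2, an adaptor of the insulin receptor, stood at 20.9 and 21.9 TPM in knockout embryos, compared with 12.1 and 13.2 TPM in control embryos (0.72 ± 0.12; limma, Benjamini-Hochberg adjusted p = 0.0610). Irs2 passed with somite stage in the model (limma adjusted p = 0.0263), where 2.08% of all tested genes passed upwards. Gadd45a, a DNA damage and growth arrest gene, stood at 21.5 and 24.9 TPM in knockout buds, against 15.9 and 13.5 TPM in control buds (limma adjusted p = 0.127). Sesn1, a stress-response gene, stood at 24.7 and 26.7 TPM in knockout libraries and at 18.2 and 17.4 TPM in control libraries (limma adjusted p = 0.132). These 3 genes are also known targets of other factors.

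Of 16 genes listed as acting on FOXO proteins, such as the kinase gene Akt1, 0 passed in either direction by limma. At an unadjusted p of 0.05, 0 were higher and 1, Pdk1, was lower, beside the same 6.78% and 6.89% of all tested genes. The log2 fold changes of the 16 ran from -0.31 to 0.32. The smallest p-values were those of Pdk1, Sgk3 and Sgk1. Pdk1 is a pyruvate dehydrogenase kinase gene that shares a name with the FOXO pathway kinase Pdpk1, so the 1 lower gene is not a FOXO regulator. Pdk1 stood at 22.3 and 22.7 TPM in knockout embryos, compared with 28.6 and 26.6 TPM in control embryos. Sgk3, an AKT-related kinase gene, stood at 12.5 and 11.8 TPM in knockout buds, against 16.1 and 14.5 TPM in control buds. Its relative Sgk1 stood at 4.85 and 5.29 TPM in knockout libraries and at 3.87 and 3.84 TPM in control libraries.

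None of the broadly expressed FOXM, FOXK, FOXJ and FOXN members passed. Foxm1, the cell division factor, stood at 57.8 and 61.3 TPM in knockout embryos, compared with 48.3 and 58.4 TPM in control embryos, with overlapping groups and a 95% interval from -0.15 to 0.47. Foxk2, a repressor with a forkhead-associated domain, stood at 31.3 and 35.4 TPM in knockout buds, against 34.2 and 38.0 TPM in control buds. Its paralog Foxk1, known in muscle progenitors, stood at 8.59 and 8.55 TPM in knockout libraries and at 8.33 and 9.50 TPM in control libraries. All 7 genes of this class were tested and 0 passed, with log2 fold changes from -0.27 to 0.16. Foxn3, a transcriptional repressor of the cell cycle, had the lowest of these (-0.27 ± 0.12; limma, Benjamini-Hochberg adjusted p = 0.422), at 13.7 and 14.2 TPM in knockout embryos, compared with 16.3 and 17.7 TPM in control embryos, groups that did not overlap. Foxj3 stood at 14.0 and 15.2 TPM in knockout buds, against 14.8 and 16.3 TPM in control buds. Foxn2 stood at 8.90 and 10.5 TPM in knockout libraries and at 8.80 and 10.2 TPM in control libraries. Foxj2 stood at 3.16 and 2.61 TPM in knockout embryos, compared with 2.26 and 2.83 TPM in control embryos, and the groups overlapped for each of these last 3 genes.

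Targets of FOXM1 in mitosis gave no call either: of 16 tested, 0 passed over all genes by limma. At an unadjusted p of 0.05, 0 of them passed, where 13.7% of all tested genes did. The log2 fold changes of these targets ran from -0.09 to 0.24 with a median of 0.07. Kif20a, a mitotic kinesin gene with the smallest p, stood at 136.9 and 145.9 TPM in knockout buds, against 112.1 and 128.2 TPM in control buds (limma, Benjamini-Hochberg adjusted p = 0.456). Aurka, a mitotic kinase gene, stood at 131.9 and 143.1 TPM in knockout libraries and at 109.1 and 129.9 TPM in control libraries, and Ccnf, which encodes cyclin F, at 50.9 and 57.0 TPM in knockout embryos, compared with 41.4 and 52.2 TPM in control embryos.

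**Figure D4:**
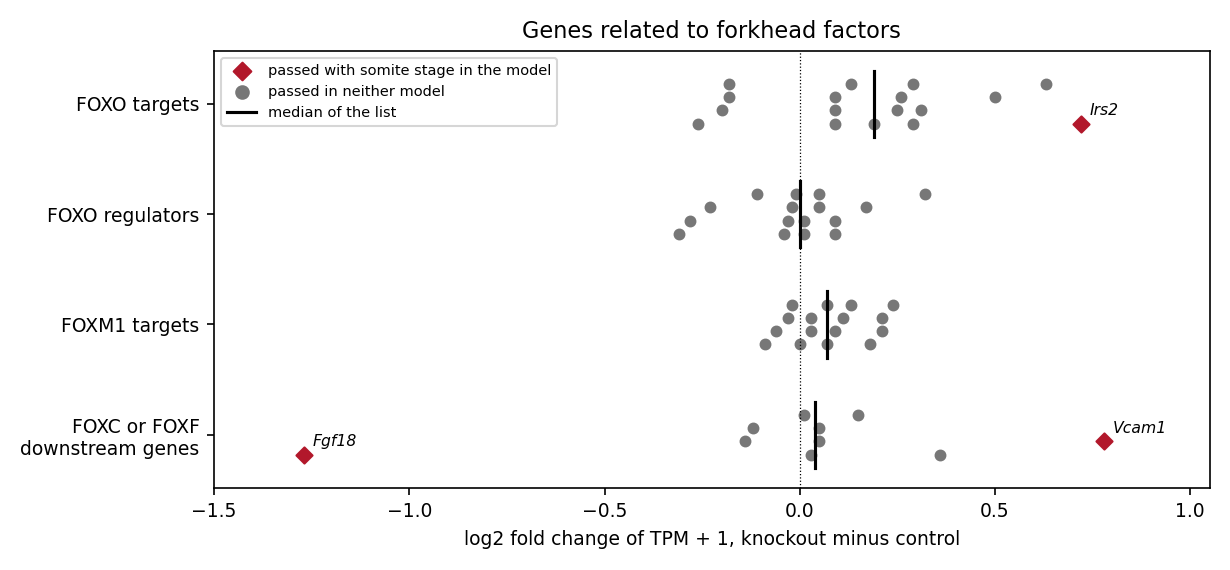
Log2 fold change of TPM + 1, knockout minus control, of the tested genes in 4 related lists, with 1 point per gene and a black line at each list's median. None passed in the model without stage, and Irs2, Fgf18 and Vcam1 passed with somite stage in the model (red diamonds). In the model with stage 4.16% of all tested genes passed, against 1.30% without.

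Among 10 genes reported downstream of FOXC or FOXF factors in other mouse tissues, 0 passed by limma over all genes, and 2 were higher and 1 lower at an unadjusted p of 0.05, against 6.78% higher and 6.89% lower over all tested genes. Fgf18, a growth factor gene of skeletal and palate mesenchyme, stood at 2.36 and 2.03 TPM in knockout buds, against 8.12 and 5.50 TPM in control buds (-1.27 ± 0.20; limma, Benjamini-Hochberg adjusted p = 0.0519). Vcam1, an adhesion molecule gene, stood at 78.1 and 79.4 TPM in knockout libraries and at 40.5 and 50.7 TPM in control libraries (0.78 ± 0.14; limma adjusted p = 0.0652). Both passed with somite stage in the model (limma adjusted p = 0.0242 and 0.0279), where 4.16% of all tested genes passed in either direction. The chemokine receptor gene Cxcr4 stood at 15.0 and 17.0 TPM in knockout embryos, compared with 11.0 and 13.4 TPM in control embryos. The other 7 genes had an unadjusted p above 0.05.

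By level, 4 genes made up most forkhead RNA in the buds. Foxm1, Foxo4, Foxk2 and Foxp4 together held 65.7% and 64.8% of the summed forkhead TPM in the knockout and 66.0% and 66.2% in the control. The sum over all 41 genes was 265.2 and 287.4 TPM in knockout buds, against 233.7 and 256.8 TPM in control buds. In the controls Foxm1 and Foxo4 overlapped at the top of the order, and in the knockouts both Foxo4 values lay above both Foxm1 values. Foxk2 and then Foxp4 followed without overlap in the controls, and in the knockouts Foxp4 overlapped Foxp1. In the controls Foxp1, Foxn2, Foxk1 and Foxo3 lay between 8.00 and 10.2 TPM, each overlapping the next in that order, and in the knockouts Foxp1 lay above the other 3.

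Over the 17 tested genes, the knockout values lay wholly above the control values in 5 (Foxd1, Foxp1, Foxc2, Foxp2 and Foxo4) and wholly below them in 2 (Foxo3 and Foxn3). Of all tested genes 43.9% were separated, 22.7% upwards and 21.2% downwards. At an unadjusted p of 0.05, 5 members were higher and 1 was lower, where 13.7% of all tested genes passed in either direction. With somite stage in the model, Foxd1 and Foxp1 passed (limma, Benjamini-Hochberg adjusted p = 0.0136 and 0.0193) and no further member did, while 4.16% of all tested genes passed in either direction and 2.08% upwards.

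Of the 24 genes that were not tested, 4 (Foxe3, Foxi1, Foxn4 and Foxr1) were listed at 0 in every library, and 20 stayed below 0.3 TPM throughout, these 4 included. The other 4 were Foxd2, Foxf2, Foxi3 and Foxb1. Foxb1, a gene of the hypothalamus and hindbrain, reached 0.405 and 0.267 TPM in the knockout and 0.0239 TPM and 0 in the control. Foxd3, a neural crest gene, reached 0.0595 and 0.197 TPM in the knockout and was listed at 0 in both controls. Of the 20 that were above 0 in some library, knockout values lay above control values in 8 (Foxf2, Foxb1, Foxd3, Foxl1, Foxl2, Foxa1, Foxq1 and Foxe1) and below them in 3 (Foxf1, Foxo6 and Foxn1). Among the 8137 genes under the filter that were not at 0 throughout, 15.5% were separated upwards and 15.9% downwards. Fitted without the filter, Foxf2 had a log2 fold change of 0.78 and Foxb1 of 0.40, and neither passed (limma adjusted p = 0.335 and 0.214). The reads behind such low values are unknown. The endoderm pioneer factors Foxa1, Foxa2 and Foxa3 stayed at or below 0.0753 TPM.

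**Figure D5:**
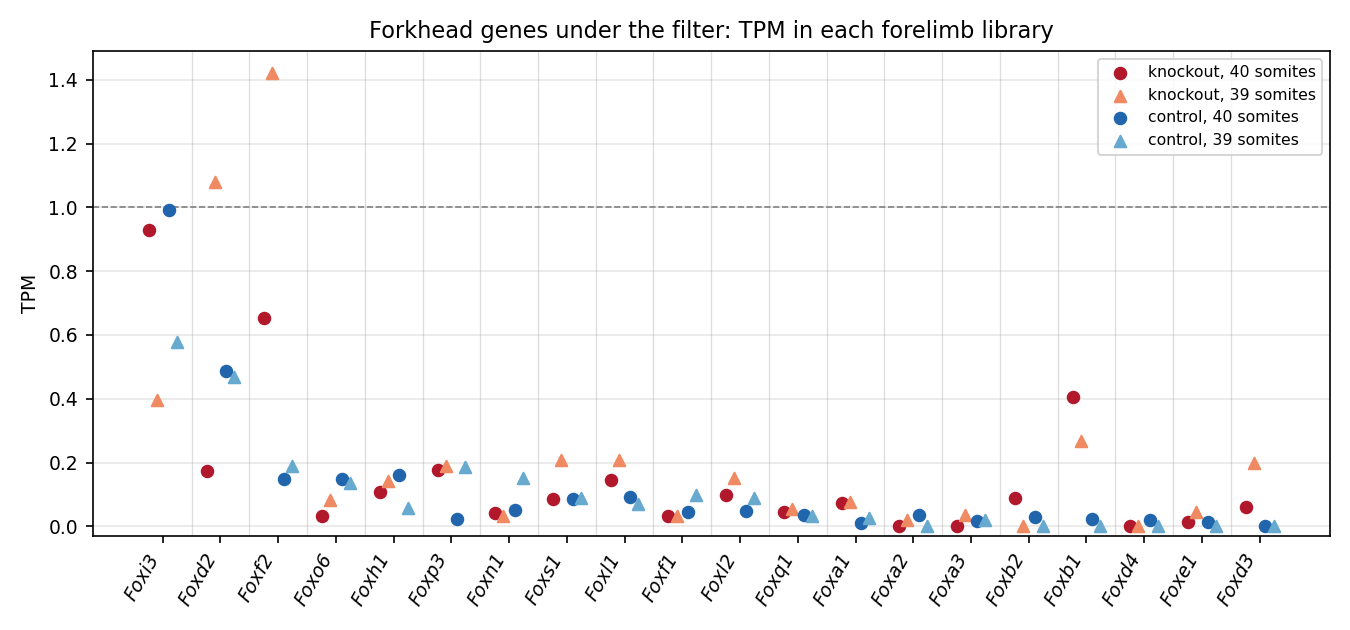
TPM of the 20 forkhead genes that were under the filter and above 0 in some library, with 1 point per library, colours and symbols as for the tested genes, and the dashed line at 1 TPM. Foxf2 and Foxd2 cross the line in the knockout library with 39 somites, and Foxb1 stands at 0.405 and 0.267 TPM in the knockout.

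Foxi2 and Foxi3, forkhead genes of surface ectoderm and its appendages, were higher at 40 than at 39 somites in both genotypes. Sex coincided with somite stage, with 1 embryo per genotype and stage, so stage, sex and embryo cannot be told apart here. Foxi2 stood at 1.30 and 0.965 TPM in knockout libraries and at 2.24 and 1.23 TPM in control libraries (-0.34 ± 0.23; limma, Benjamini-Hochberg adjusted p = 0.607). Foxi3 stood at 0.930 and 0.395 TPM in knockout embryos, compared with 0.993 and 0.579 TPM in control embryos. The 14 surface ectoderm markers were also higher in sum at 40 than at 39 somites, with summed levels of 530.2 and 330.8 TPM in knockout buds, against 669.3 and 451.4 TPM in control buds. None of the 14 passed by limma, 4 were lower at an unadjusted p of 0.05 (6.89% of all tested genes were), and their log2 fold changes ran from -0.82 to -0.09. Knockout values lay wholly below control values in 5 of the 14, as in 21.2% of all tested genes, and wholly above them in 0. With somite stage in the model 3 of them passed as lower, namely Cldn6, Perp and Grhl3 (limma adjusted p = 0.023, 0.0251 and 0.0496). In that model 267 of all 12809 tested genes passed as lower. The part of the surface ectoderm in the Foxi2 and Foxi3 values was not tested.

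The buds are mixed tissue, and in such samples fewer cells of a type and less RNA per cell cannot be told apart. Beside the rises of Foxd1 and Foxp1, the 12 endothelial markers summed to 105.3 and 145.4 TPM in knockout buds, against 85.2 and 151.4 TPM in control buds, so their groups overlapped, and 0 passed. The 10 smooth muscle and pericyte markers, of cells that can derive from Foxd1 lineages in the kidney, summed to 50.3 and 51.3 TPM in knockout embryos, compared with 56.9 and 59.5 TPM in control embryos. None of the 6 tested passed, and Tagln was lower at an unadjusted p of 0.05, as were 6.89% of all tested genes. Knockout values lay wholly above control values in 2 of the 6, Rgs5 and Cspg4, and wholly below them in 2, Tagln and Notch3. Over all tested genes 22.7% were separated upwards and 21.2% downwards. Myh11 stayed under 0.04 TPM. The 10 migrating myoblast markers summed to 47.9 and 51.7 TPM in knockout buds, against 40.6 and 30.9 TPM in control buds, and 0 of the 9 tested passed. At an unadjusted p of 0.05, 2 of these, Chrna1 and Myod1, were higher, as were 6.78% of all tested genes. Knockout values lay wholly above control values in 3 of the 9 and wholly below them in 0. The 10 Schwann and neural crest markers, Foxd3 among them, summed to 32.2 and 24.6 TPM in knockout buds, against 38.3 and 36.8 TPM in control buds. Among them Sox10 stayed between 0.0405 and 0.217 TPM. Of the 5 tested markers 0 passed, and 1, Tfap2a, was lower at an unadjusted p of 0.05, as were 6.89% of all tested genes. Knockout values lay wholly below control values in 3 of these 5 and wholly above them in 0.

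The 10 macrophage markers summed to 24.6 and 20.2 TPM in knockout embryos, compared with 25.6 and 36.1 TPM in control embryos. The 10 erythroid markers summed to 12598.1 and 11985.7 TPM in knockout buds, against 9931.5 and 11312.7 TPM in control buds. None of the 8 macrophage markers tested passed by limma, nor did any erythroid marker. The globin gene Hba-a1 passed as higher with somite stage in the model (limma adjusted p = 0.0487, and 0.11 without). In the model with stage 4.16% of all tested genes passed in either direction. Hba-a1 stood at 1831.6 and 1832.5 TPM in knockout buds, against 782.5 and 1154.2 TPM in control buds. The related globin gene Hba-a2 stood at 434.6 and 318.1 TPM in knockout buds, against 197.6 and 911.4 TPM in control buds. Its controls lay on both sides of the knockouts, so no direction is shown (-0.19 ± 0.65; limma adjusted p = 0.939). How reads were divided between these genes was not tested. At an unadjusted p of 0.05, 1 macrophage marker was lower, and 2 erythroid markers were higher and 1 lower. At that threshold 6.78% of all tested genes were higher and 6.89% lower. The log2 fold changes of the 8 macrophage markers ran from -0.84 to -0.23. Knockout values lay wholly below control values in 5 of these 8 and wholly above them in 0. For the 10 erythroid markers these counts were 1 and 3. Over all tested genes 21.2% were separated downwards and 22.7% upwards. Of the 10 limb mesenchyme markers, Pdgfra, a growth factor receptor gene, rose beside Foxd1 and Foxp1, to 161.8 and 173.4 TPM in knockout buds, against 79.5 and 84.0 TPM in control buds (1.03 ± 0.11; limma, Benjamini-Hochberg adjusted p = 0.0165), and 0 fell in the model without stage. With somite stage in the model, Col1a2, a collagen gene, also passed as higher, at 157.6 and 173.5 TPM in knockout buds against 93.9 and 121.7 TPM in control buds (limma adjusted p = 0.0335). In that model Prrx1, the homeobox gene whose enhancer drives PrxCre, passed as lower, at 129.9 and 139.8 TPM in knockout buds against 188.2 and 201.1 TPM in control buds (log2 fold change -0.53; limma adjusted p = 0.0293, and 0.101 without stage). The Pdgfra call ended without control replicate 1 or control replicate 2 (limma adjusted p = 0.0597 and 0.0524). The part of these cell types in the rises of Foxd1 and Foxp1 was not tested.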

How the data were processed

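RNA of 4 mouse forelimb pairs was sequenced on a DNBseq instrument, per the labels' protocols. The authors deposited TPM values per Ensembl gene (35727 identifiers, 4 columns, each summing to 1000000). Salmon 1.9.0 and mm10 are named in the submitters' processing notes; the transcript set is not given in the sources used here. The column name of control replicate 1 has a letter that its title lacks. Symbols were found for 35422 identifiers (99.1%), and 38 symbols found more than once were summed. Genes with at least 1 TPM in at least 2 libraries (12809) entered limma 3.58.1 (R 4.3.3; variance trend, no covariates) on the log2(TPM + 1) scale, with Benjamini-Hochberg adjustment. With 2 libraries per genotype the smallest two-sided p of an exact permutation test is 0.333, so none was run. Each library is an embryo.

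Coordinates are from GENCODE's mm10 annotation, counted from 1; stretches of 31 bases were compared, on both strands, between its transcripts. The members, lists and rules were chosen with earlier results of these data known. Tested members and list genes with the smallest p are named; The cell type markers named were picked on their values. The test was checked on simulated data with independent normal noise and no stage or sex effect, a simpler setting than these data. The alternatives were pseudocounts 0.1 and 5, no filter (genes at 0 throughout left out), a filter at 5 TPM, median-ratio and quantile scaling, a block for somite stage, the fit without a trend, and each library left out.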

Additional observations from a re-analysis of the deposited data

Results flagged for a closer look

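Within each somite stage the knockout lay on opposite sides of the control for 3 tested members. For Foxj2 the knockout minus control difference of log2(TPM + 1) was 0.35 at 40 somites and -0.09 at 39, a gap of 0.44. For Foxk1 it was 0.04 and -0.14, a gap of 0.18. For Foxp4 it was 0.00 and -0.12, a gap of 0.12. With 1 embryo per genotype and stage these differences were not tested, and 30.8% of all tested genes show opposite directions.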

How the results depend on the processing

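Foxd1 kept its direction under all 11 alternatives that could be run for it and passed in 10, with log2 fold changes from 0.73 to 4.89 (2.03 to 2.14 with 1 added to TPM). At a filter of 5 TPM it was not tested. Foxp1 kept its direction under all 12, from 0.92 to 1.27, and passed in 9. Over all genes the count of calls was 0 with no filter (2338 at an unadjusted p of 0.05) and 533 with stage as a block, against 167, and 50 to 646 with a library left out. For the forkhead genes it was 0 with no filter and 1 at a filter of 5 TPM, against 2, and 1 without either control replicate (range 1 to 2 with a library left out). Among FOXO targets it was 1, Irs2, at a filter of 5 TPM, under median-ratio scaling, under quantile normalization and with the stage block, against 0, and 0 to 2 with a library left out. FOXM1 targets gave 0 in each. Near 0, Foxk1 turned to 0.0358 without control replicate 2 (-0.13 to 0.0358 over libraries left out), and Foxn2 to -0.0852 without knockout replicate 2 and -0.0770 without control replicate 1 (-0.0852 to 0.13). Pdgfra lost its call without control replicate 1 or 2 (limma adjusted p = 0.0597 and 0.0524) and with no filter (0.105), as did Smarcc1 with no filter (0.111). In fits without a library, the lone library of a genotype is assumed to vary like the others. The causes were not tested. The labels number no replicates, so the block was somite stage; the stage difference in the knockouts and that in the controls had a Pearson correlation of 0.250 and a Spearman correlation of 0.364 over 12809 genes, which are not independent. No paired analysis by replicate number was possible because the labels give no replicate numbers.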
